A study of Mus musculus with 12 samples.

Results

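The response of wild-type (WT) mouse skin to imiquimod (IMQ) was described across genes and functions other than the keratins and interleukins. It rests on 6 of the 12 mice of the series, chosen by their labels alone: 3 WT mice given IMQ cream (the IMQ group) and 3 WT mice given vehicle cream (the control group). All were females on a C57BL/6 background, aged 8 to 10 weeks and used as littermate controls of the knockout line, and the shaved back received 5% IMQ cream or vehicle cream daily for 6 days. For the control mice the treatment label reads none, while the protocol text of the labels names a vehicle. The 6 further mice are labelled *Lcn2*-/- and received the same creams, and they were used for the estimate of the spread and where stated.

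IMQ is a small molecule that activates Toll-like receptor TLR7, and repeated application to mouse skin gives scaly, thickened and inflamed lesions that serve as a model of psoriasis. Back skin holds several layers and organs in 1 sample: the epidermis, hair follicles, sebaceous glands, dermis, fat, and a thin sheet of skeletal muscle beneath them. Keratinocytes that leave the basal layer build the cornified envelope, a shell of cross-linked proteins coated with ceramide lipids, while resident Langerhans cells, dendritic cells and T cells watch the barrier. In bulk skin, fewer cells of a type and less RNA per cell cannot be told apart.

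Total RNA of each mouse was sequenced, and between 17746612 and 22643566 reads per control mouse and between 16448226 and 21337921 reads per IMQ mouse were counted on genes. Levels are given as CPM, the counts of a gene scaled to the TMM-normalized library size. A floor of 3 counts per library corresponds on this scale to 0.129 to 0.16 CPM in the control mice and 0.145 to 0.202 CPM in the IMQ mice and takes in counting error alone. The extraction protocol in the labels names retina. Only 3 of 16 retina markers had enough counts to test, 8 of the 16 were at 0 in all 6 WT mice, and their summed level was between 4.57 and 8.14 CPM, whereas the cornified envelope list summed to at least 2462 CPM in every WT mouse. Control mouse 2 and IMQ mouse 2 stood apart from their groups in several gene lists, and the counts of lists that moved most without them are given beside the result. *Lcn2*, which encodes lipocalin 2, was at 6.28, 8.64 and 4.57 CPM in the WT control mice and at 61.2, 183 and 76.1 CPM in the WT IMQ mice. It was also counted at between 29.9 and 49.8 CPM in the IMQ mice labelled *Lcn2*-/-, so these are called by their label throughout.

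Promoter sequences of some of the genes with the largest responses are shown first, because a motif was frequent near the start sites of 3 of the gene lists described. They were read from the RefSeq promoter table of GRCm38.p6, which gives 250 bases before and 50 bases after each gene start and matched 12650 of the 18529 genes tested. Capitals mark 1 match to the motif, which may lie on either strand; the windows of *Sprr2k* and *Oas3* hold a further match that is not in capitals or overlaps the capitals. For the small proline-rich genes, which encode cornified envelope precursors, the capitals mark TGANTCA, the core letters of AP-1 sites. The windows lie on the plus strand at chr3:92316485-92316541 (*Sprr2b*), chr3:92432361-92432417 (*Sprr2k*) and chr3:92338922-92338978 (*Sprr2d*).
Sprr2b: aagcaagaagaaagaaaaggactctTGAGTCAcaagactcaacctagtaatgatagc
Sprr2k: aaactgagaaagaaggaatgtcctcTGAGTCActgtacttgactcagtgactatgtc
Sprr2d: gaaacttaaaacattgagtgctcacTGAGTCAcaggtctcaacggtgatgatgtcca

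TGANTCA was found in the window of 17 of the 42 cornified envelope genes with a promoter entry (40.5%), against 6.52% of all tested genes with one, 7.82% of all 27025 promoters in the table, 13.5% of the genes called higher and 7.36% of the genes called lower. Of the 34 called members with an entry, 14 held it. Near-identical copies within the list were each counted. For the interferon-stimulated genes, the capitals mark GAAANNGAA or its reverse complement, the core of the interferon-stimulated response element. *Ifit3* lies at chr19:34583349-34583407 on the plus strand and *Oas3* at chr5:120777701-120777759 on the minus strand, and the window of *Ifit3b* held the same letters as that of *Ifit3*.
Ifit3: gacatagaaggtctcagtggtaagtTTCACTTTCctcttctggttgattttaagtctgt
Oas3: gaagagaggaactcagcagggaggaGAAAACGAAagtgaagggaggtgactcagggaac

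GAAANNGAA was found for 13 of 31 interferon-stimulated genes with an entry (41.9%), against 7.8% of all tested genes, 8.18% of all promoters, 7.18% of the genes called higher and 9.24% of the genes called lower. Of the 16 called members with an entry, 8 held it. The kappaB core GGGNNTTCC was found for 9 of 25 feedback regulators of NF-kappaB and STAT3 (36%), against 7.25% of all tested genes, 5.61% of all promoters, 6.61% of the genes called higher and 6.96% of the genes called lower. Of the 8 called regulators with an entry, 2 held it. *Bcl3*, which encodes a nuclear partner of NF-kappaB, is shown for it, at chr7:19822826-19822884 on the minus strand.
Bcl3: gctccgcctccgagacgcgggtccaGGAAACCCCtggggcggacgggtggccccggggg

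All motifs were searched on both strands. A match describes letters in a window, and no binding was measured. The interferon-stimulated and NF-kappaB lists were picked for the same pathways as their motifs. A high share in these lists thus says nothing of the response to IMQ.

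Compared to the control group, 1325 genes were higher and 1440 genes were lower in the IMQ group, of 18529 genes tested, with a fold change above 2 and an adjusted p under 0.05 by the quasi-likelihood test of edgeR, adjusted by the Benjamini-Hochberg method (a called gene from here on). These are 7.15% and 7.77% of the genes tested, and they are given as a scale for each gene list below. The lists and their members were chosen with earlier results of these data known. A larger share in a list is thus no test of that list. The 3 IMQ values lay above all 3 control values for 20.1% of the genes tested and below them for 20.6%. The median log2 fold change of all genes was -0.02. Without control mouse 2 the counts were 1332 higher and 1302 lower. In all, 68 gene lists were described, and 304 of their 1781 tested genes were called higher and 249 lower.

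**Figure D1:**
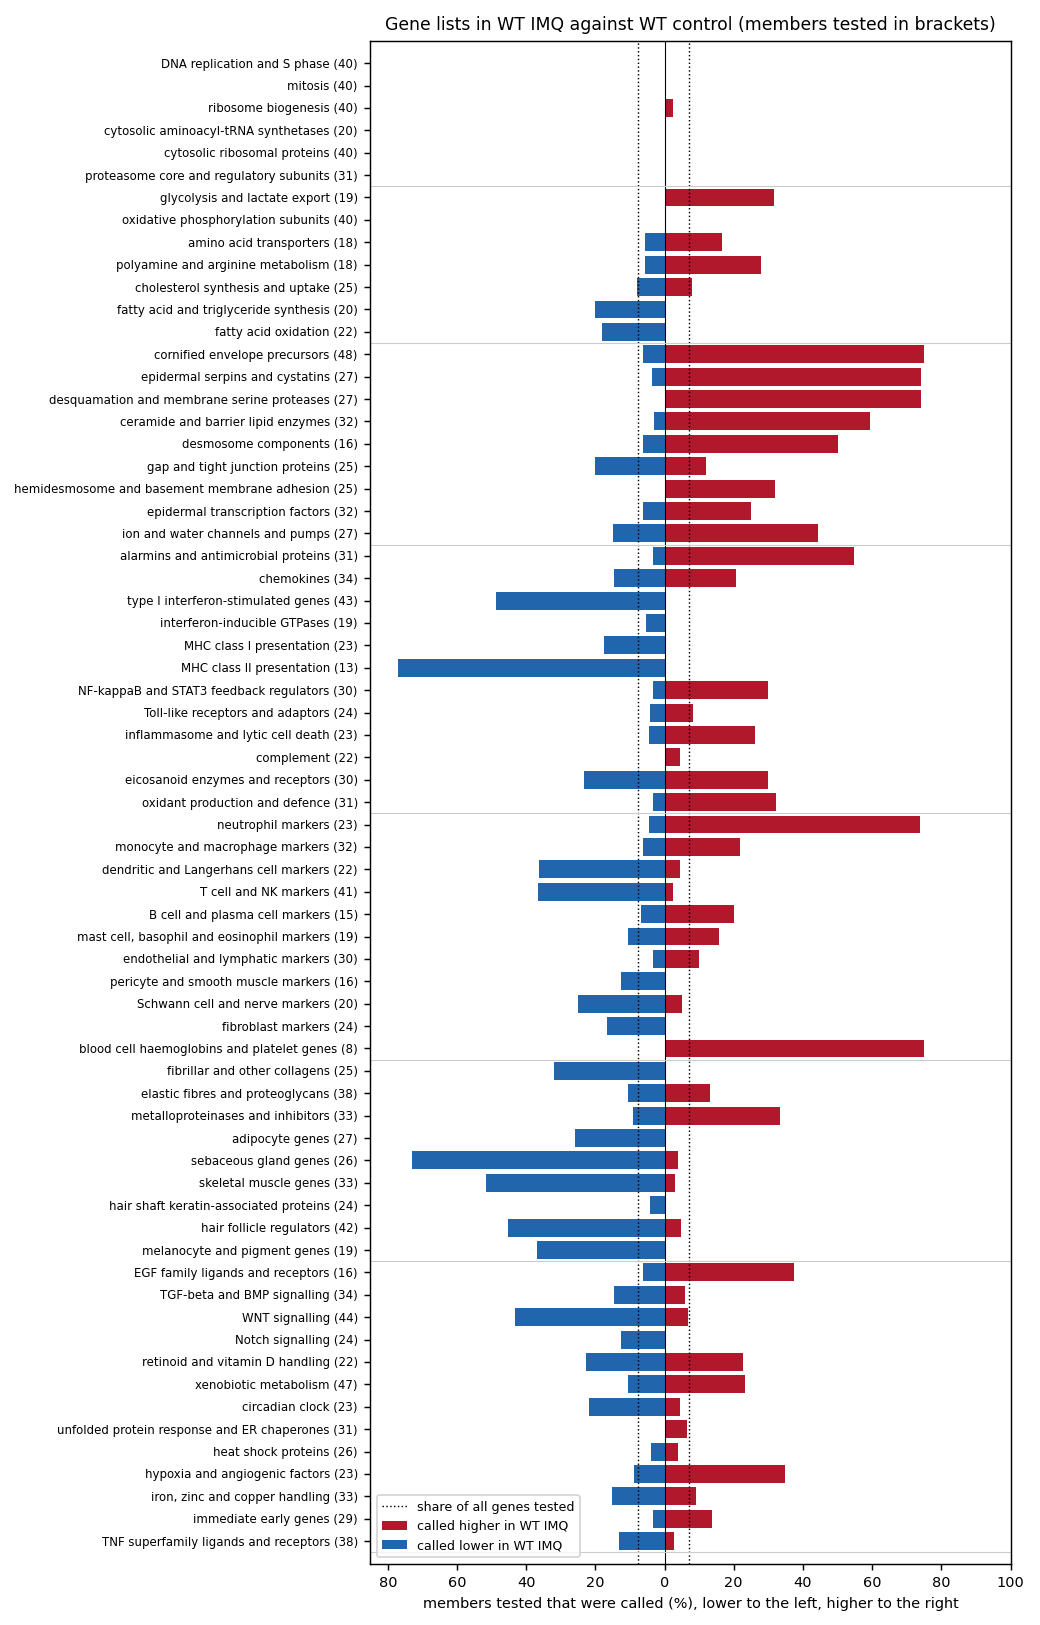
Bars give the percentage of each gene list's tested members that were called higher (to the right) or lower (to the left) in WT IMQ against WT control mice (n = 3 per group), with the number tested in brackets and dotted lines at the shares of all genes tested (7.15% higher, 7.77% lower). Cornified envelope, serpin, protease and neutrophil lists extend to the right and MHC class II and sebaceous gland lists to the left, while DNA replication and mitosis lists have no bar.

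The 10 genes with the largest gain in CPM were *Fabp5*, *S100a9*, *BC100530*, *Calm4*, *S100a8*, *Stfa3*, *Sfn*, *Rptn*, *Dmkn* and *Lgals7*. Together they took 2.89% of the counts in the IMQ group and 0.33% in the control group. *Fabp5* (chr3:10012548-10016607 in GRCm38), which encodes the fatty acid binding protein of keratinocytes, was at 577, 562 and 959 CPM in the control mice and at 6097, 4573 and 6069 CPM in the IMQ mice. The groups were far apart, and the log2 fold change was 3.00 ± 0.24 (SE, n = 3 mice per group). *Calm4*, a calmodulin-like protein of the epidermis, rose from between 254 and 498 CPM to between 2507 and 3753 CPM. *Sfn*, which encodes stratifin (14-3-3 sigma), rose from between 192 and 478 CPM to between 2127 and 2902 CPM. *Lgals7*, an epithelial galectin, and *Dmkn*, the secreted protein dermokine, were already abundant in control skin and had log2 fold changes of 1.89 ± 0.24 and 1.46 ± 0.21.

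The 10 genes with the largest loss in CPM belonged to lipid synthesis (*Scd1*, *Elovl6*), muscle (*Acta1*, *Atp2a1*, *Tnnt3*, *Ckm*, *Tpm1*), antigen presentation (*Cd74*) and other functions (*Gsn*, *Cst6*). *Gsn*, which encodes the actin-severing protein gelsolin, was at 3056, 5286 and 2051 CPM in the control mice and at 1244, 1832 and 1044 CPM in the IMQ mice. The groups did not overlap, but its log2 fold change of -1.33 ± 0.37 was no longer called without control mouse 2, IMQ mouse 1 or IMQ mouse 3. *Cst6*, which encodes the protease inhibitor cystatin M/E of differentiating epidermis, fell from between 819 and 1251 CPM to between 187 and 501 CPM.

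Cornified envelope precursors had the largest number of called members of any list. Of 48 tested, 36 were higher and 3 were lower, and their median log2 fold change was 2.27. *Rptn* (chr3:93393699-93399442), which encodes repetin, a fused S100 protein of the envelope, was at 37.1, 59.1 and 35.4 CPM in the control mice and at 2311, 1975 and 1843 CPM in the IMQ mice. Each IMQ mouse was far above each control mouse, with a log2 fold change of 5.54 ± 0.26 and an adjusted p of 3.64e-07 by edgeR's quasi-likelihood test. *Sprr2b* had no count in any control mouse and lay between 163 and 205 CPM in the IMQ mice, at least 1334-fold higher than the floor of 3 counts per library, averaged over the control mice as for the other bounds. *Sprr2k*, also without counts in the control mice, was at 15.9, 6.32 and 15 CPM, at least 87-fold higher. *Lce3b*, a late cornified envelope gene of the group that is induced in damaged skin, rose from 0.266 CPM or less to between 62.9 and 106 CPM.

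The 3 precursors that fell were *Flg2*, *Lce1m* and *Sprr4*. *Flg2*, which encodes filaggrin 2, was at 208, 243 and 303 CPM in the control mice and at 50.2, 37.2 and 23.3 CPM in the IMQ mice, a log2 fold change of -2.77 ± 0.39. *Lce1m*, of the late cornified envelope group that is used in intact skin, fell from between 109 and 147 CPM to between 11.7 and 35.5 CPM. The counts of this list ran from 35 to 38 higher and stayed at 3 lower when any WT mouse was left out. Reads of the *Sprr2*, *Lce*, serpin and stefin families can be split between near-identical copies by counting, so single members are less certain than their lists.

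Serpins and cystatins, inhibitors of serine and cysteine proteases, rose in 20 of 27 members tested and fell in 1 (2 without control mouse 2). Their median log2 fold change was 3.16. *Serpinb3a* was at 1 count or less in every control mouse and at 482, 620 and 535 CPM in the IMQ mice, at least 3834-fold higher. *BC100530* and *Stfa3*, stefins that inhibit cysteine proteases, reached between 2668 and 2941 CPM and between 1959 and 2602 CPM. Control mouse 2 was the lowest of the control mice in both, at 5.37 and 13.6 CPM against 32.1 or more and 52.7 or more in the other control mice.

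Desquamation and membrane serine proteases rose in 20 of 27 members, with none lower and a median log2 fold change of 2.37. *Klk13*, which encodes a kallikrein that helps to shed the outermost cells, was at 7.35, 3.70 and 11 CPM in the control mice and at 359, 308 and 307 CPM in the IMQ mice. Its log2 fold change was 5.48 ± 0.41, and the groups were well separated. *Tmprss11b*, a membrane-bound serine protease of stratified epithelium, had at most 1 count per control library and lay between 57.1 and 64.0 CPM in the IMQ group, at least 426-fold higher. The count of 20 held when any WT mouse was left out and in every other fit.

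Ceramide and barrier lipid enzymes rose in 19 of 32 members (median log2 fold change 1.18). *Tgm1* and *Tgm3*, transglutaminases that cross-link the envelope, had log2 fold changes of 3.04 ± 0.23 and 4.40 ± 0.69. They are counted in this list, so its count is not of lipid enzymes alone. *Degs2*, which adds the hydroxyl group of phytoceramides, rose from between 3.10 and 4.81 CPM to between 53.6 and 88.6 CPM. *Cers4*, a ceramide synthase, was at 227, 217 and 428 CPM in the control mice and at 49.3, 163 and 33.8 CPM in the IMQ mice. It was called lower, but not without control mouse 3, IMQ mouse 1 or IMQ mouse 3.

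Cell adhesion genes differed by junction type. Desmosome components, which couple keratinocytes to each other, rose in 8 of 16 members and fell in 1 (0 when any WT mouse was left out). Those that rose included the cadherins *Dsg3* (from between 69.9 and 109 CPM to between 436 and 621 CPM), *Dsg1b* and *Dsc1*. Hemidesmosome and basement membrane adhesion genes rose in 8 of 25, with log2 fold changes of 1.64 ± 0.14 for integrin *Itga6* and 1.81 ± 0.23 for integrin *Itga3*. Gap and tight junction genes had 3 members higher and 5 lower of 25. *Gjb6*, which encodes connexin 30, rose from between 4.21 and 16.1 CPM to between 142 and 298 CPM, whereas the claudin *Cldn8* fell from between 11.8 and 16 CPM to between 1.01 and 1.82 CPM. *Marveld2*, which encodes tricellulin, fell too, with a log2 fold change of -1.48 ± 0.27. The connexin 26 gene *Gjb2* showed how control mice varied: it was at 202, 9.67 and 122 CPM in them, against 1406, 1060 and 1249 CPM in the IMQ mice, and its call was lost when any 1 of the 6 WT mice other than control mouse 1 was left out.

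Among 32 epidermal transcription factors, 8 were higher and 2 lower. *Ehf*, an ETS factor of epithelial cells, was at 19.1, 28.0 and 23.8 CPM in the control mice and at 255, 214 and 212 CPM in the IMQ mice, and *Grhl3*, a grainyhead factor of the barrier, was at 33.5, 27.9 and 42.5 CPM against 264, 184 and 215 CPM. Both groups of values were compact and did not overlap, with log2 fold changes of 3.26 ± 0.22 and 2.68 ± 0.20. *Elf3*, another ETS factor, rose as well (log2 fold change 3.58 ± 0.54). *Gata3*, a zinc finger factor of differentiating epidermis, hair follicles and T cells, fell from 101, 64.2 and 112 CPM to 23.7, 24.9 and 23 CPM. *Bach2* had a log2 fold change of -3.07 ± 0.60, with control mouse 2 at 17.0 CPM and the other control mice at 80.1 CPM or more.

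Channels and pumps rose in 12 of 27 members and fell in 4 (2 without control mouse 2 or IMQ mouse 3). *Aqp3*, which carries water and glycerol into keratinocytes, was at 71.2, 46.6 and 80.7 CPM in the control mice and at 1265, 923 and 1004 CPM in the IMQ mice. It differed 16.1-fold between groups that were far apart. *Slc5a1*, a sodium-coupled glucose transporter, and *Slc26a9*, an anion channel, both rose, with log2 fold changes of 4.06 ± 0.19 and 4.02 ± 0.22. The chloride channel regulator *Clca3a2* had a log2 fold change of -1.42 ± 0.41 whose call was lost without control mouse 2, control mouse 3, IMQ mouse 1 or IMQ mouse 3.

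**Figure D2:**
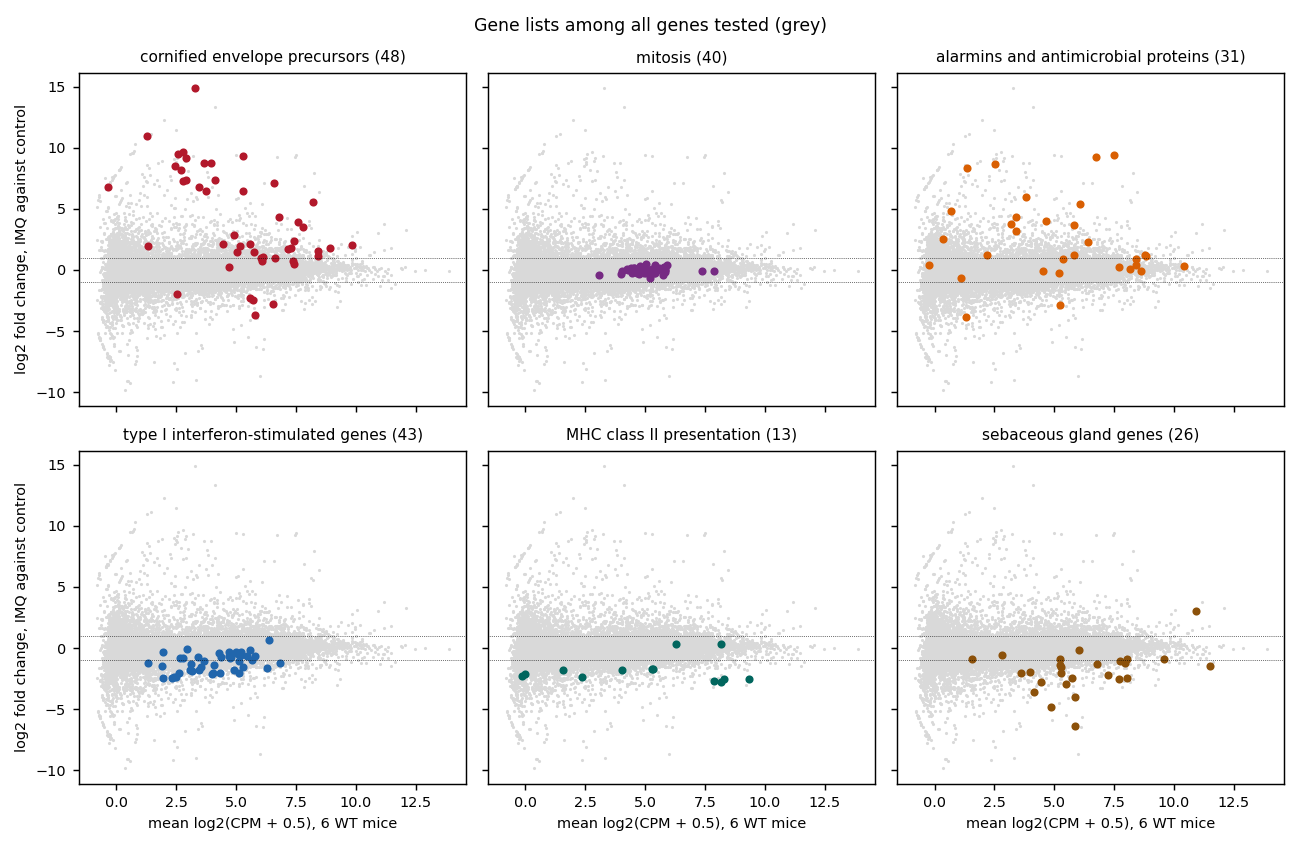
Each panel plots the log2 fold change of WT IMQ against WT control mice over the mean log2(CPM + 0.5) of the 6 WT mice, with all genes tested in grey and 1 gene list in colour. The 48 cornified envelope precursors and 31 alarmins lie mostly above 0, the 40 mitosis genes close to 0, and most MHC class II and sebaceous gland genes below 0.

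Growth and proliferation genes behaved differently from the barrier genes. None of 40 DNA replication genes and none of 40 mitosis genes was called by edgeR's quasi-likelihood test, none by DESeq2, and 1 and 0 of them had an unadjusted p under 0.05. *Mki67*, a marker of cycling cells, was at 348, 90.4 and 338 CPM in the control mice and at 282, 202 and 258 CPM in the IMQ mice. *Top2a*, the topoisomerase of mitotic chromosomes, was at 234, 67.1 and 262 CPM against 208, 135 and 189 CPM. Control mouse 2 was well below and the other control mice above every IMQ mouse in both genes. *Mcm2*, a subunit of the replicative helicase, was at 67.5, 41.4 and 86.2 CPM in the control mice and at 44.5, 45.8 and 52.5 CPM in the IMQ mice, with control mouse 2 again the lowest of all 6.

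The level of a list in a mouse is given as the mean over its tested members of log2(CPM + 0.5), relative to the WT control mean. For the mitosis list it was 0.50, -1.17 and 0.67 for the control mice, against 0.33, -0.07 and 0.20 for the IMQ mice. Hair follicle regulators varied the same way among the control mice, at 0.58, -1.03 and 0.45, and melanocyte genes did too, at 0.42, -0.89 and 0.47. At most 1 gene of the DNA replication list and 1 of the mitosis list was called when any WT mouse was left out, control mouse 2 included. The part of the follicles in these values was not tested.

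Genes for making ribosomes lay higher in the IMQ group by less than 2-fold. In the ribosome biogenesis list, 29 of 40 members had all 3 IMQ values above all control values, against 20.1% of all genes, and the median log2 fold change was 0.39. Only *Gnl3*, which encodes the nucleolar protein nucleostemin, passed the 2-fold limit, and its log2 fold change of 1.02 ± 0.19 was no longer called without control mouse 2, IMQ mouse 1 or IMQ mouse 3. Cytosolic tRNA synthetases had a median of 0.35, with 12 of 20 not overlapping and none called. Cytosolic ribosomal proteins (median 0.20, 5 of 40 not overlapping on the higher side) and proteasome subunits (0.11, 3 of 31) had no called member either. In these 3 lists, 12, 8 and 4 members had an unadjusted p under 0.05 by edgeR's quasi-likelihood test. The adjusted p was under 0.05 for 8, 2 and 2 of them, and for 17 members of the ribosome biogenesis list. Apart from *Gnl3*, these were left uncalled by the 2-fold limit alone. DESeq2 called no member of the 3 lists with a 2-fold limit.

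Energy and nutrient genes changed in a few steps each. Glycolysis and lactate export had 6 of 19 members higher, none lower and a median log2 fold change of 0.77. *Slc2a1* (chr4:119108711-119137983), the glucose transporter GLUT1, was at 34.4, 38.5 and 50.7 CPM in the control mice and at 230, 211 and 283 CPM in the IMQ mice. The groups did not overlap, and the log2 fold change was 2.55 ± 0.19. *Pfkl*, the liver-type phosphofructokinase, and *Eno1*, enolase, rose with log2 fold changes of 1.39 ± 0.15 and 1.32 ± 0.16. Oxidative phosphorylation subunits had no called member among 40, and DESeq2 called none. By edgeR's quasi-likelihood test, 13 subunits had p under 0.05 before adjustment, and 9 stayed below that limit after it. These 9 were left uncalled by the 2-fold limit alone, as log2 fold changes in the list ran from -0.72 to 0.99. Of the 40 subunits, 13 lay lower without overlap, against 20.6% of all genes.

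Amino acid transporters had 3 of 18 members higher and 1 lower (0 without control mouse 2 or IMQ mouse 2), at a median log2 fold change of 0.10. They included 1 of the steepest rises outside the barrier genes. *Slc7a11*, which imports cystine for glutathione synthesis, was at 2.03, 0.817 and 1.06 CPM in the control mice and at 172, 128 and 148 CPM in the IMQ mice, a 114-fold difference. Every IMQ mouse was far above every control mouse. *Slc38a2*, a carrier of neutral amino acids, rose with a log2 fold change of 1.17 ± 0.19. In polyamine and arginine metabolism, 5 of 18 members were higher and 1 lower. *Arg1*, arginase, was at 11.9, 16.9 and 11.1 CPM against 186, 154 and 198 CPM, and the polyamine catabolic enzymes *Smox* and *Sat1* had log2 fold changes of 2.46 ± 0.21 and 1.93 ± 0.18. *Sms*, spermine synthase, had a log2 fold change of -1.18 ± 0.21, a call that was lost without control mouse 3.

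Genes of response to low oxygen were raised in 8 of 23 members and lowered in 2 (1 without control mouse 2). *Hif1a*, the oxygen-regulated transcription factor, was at 110, 112 and 101 CPM in the control mice and at 417, 394 and 400 CPM in the IMQ mice. Its values were compact in both groups, with a log2 fold change of 1.91 ± 0.12. *Egln3*, a prolyl hydroxylase that acts on that factor, and the carbonic anhydrase *Car12* rose with log2 fold changes of 2.30 ± 0.18 and 1.99 ± 0.23.

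In fatty acid and triglyceride synthesis, 4 of 20 members were lower and none higher. *Elovl6* (chr3:129532355-129638495), an elongase of saturated fatty acids, was at 1702, 1626 and 2911 CPM in the control mice and at 150, 554 and 68.8 CPM in the IMQ mice. The groups did not overlap, although IMQ mouse 2 kept a higher level than the other IMQ mice. *Scd1*, stearoyl-CoA desaturase, had the largest loss in CPM of all called genes, from 3278, 6243 and 5771 CPM to 1310, 3129 and 1184 CPM, but its call was lost without control mouse 2, control mouse 3, IMQ mouse 1 or IMQ mouse 3. Fatty acid oxidation genes were lower in 4 of 22, among them *Ppara*, the nuclear receptor that drives them, with a log2 fold change of -1.83 ± 0.29. Without IMQ mouse 2, 9 members of the synthesis list were lower.

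Of 26 sebaceous gland genes, 19 were lower and 1 (*Fabp5*) higher, with a median log2 fold change of -1.76. *Awat2*, an acyltransferase that makes wax esters, was at 152, 183 and 204 CPM in the control mice and at 2.48, 14.5 and 1.89 CPM in the IMQ mice. *Scd3*, the desaturase of sebocytes, was at 429, 681 and 665 CPM against 3.09, 16.4 and 2.66 CPM. In both genes the groups were far apart and IMQ mouse 2 was the highest of its group. The level of the list was -0.28, 0.01 and 0.26 for the control mice, against -2.35, -1.12 and -2.96 for the IMQ mice. The number lower was 10 without IMQ mouse 1 and between 15 and 22 without any other WT mouse.

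Innate defence genes moved in opposite directions. Alarmins and antimicrobial proteins rose in 17 of 31 members, with a median log2 fold change of 1.23. *S100a9*, a subunit of the calcium-binding alarmin calprotectin, was at 11.3, 5.46 and 4.41 CPM in the control mice and at 4086, 5919 and 4327 CPM in the IMQ mice. Its partner *S100a8* was at 7.86, 1.72 and 3.93 CPM against 1865, 4108 and 2271 CPM. The log2 fold changes were 9.40 ± 0.65 and 9.25 ± 0.81, with groups that were far apart. *Defb3*, a beta-defensin, rose from 0.372 CPM or less to between 47.3 and 61.5 CPM, whereas the lysozyme *Lyz1* fell, with a log2 fold change of -2.88 ± 0.51.

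Type I interferon-stimulated genes were lower in 21 of 43 members and higher in none, with a median log2 fold change of -1.07. *Usp18*, which restrains interferon receptor signalling, was at 11, 20.2 and 5.74 CPM in the control mice and at 2.30, 2.15 and 2.57 CPM in the IMQ mice. *Ifit3b*, whose relatives bind viral RNA, was at 11.5, 15.8 and 4.68 CPM against 1.76, 2.42 and 1.84 CPM. The IMQ values of both were tight and below all control values, and the control values spread widely. The level of the list was 0.15, 0.77 and -0.92 for the control mice, against -1.12, -0.77 and -0.99 for the IMQ mice. Control mouse 3 thus lay within the range of the IMQ group. Accordingly 12 of the 43 were free of overlap on the lower side, against 20.6% of all genes tested. The number lower was 13 without control mouse 1, 8 without control mouse 2, 7 without IMQ mouse 1, 8 without IMQ mouse 3 and 26 without control mouse 3.

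**Figure D3:**
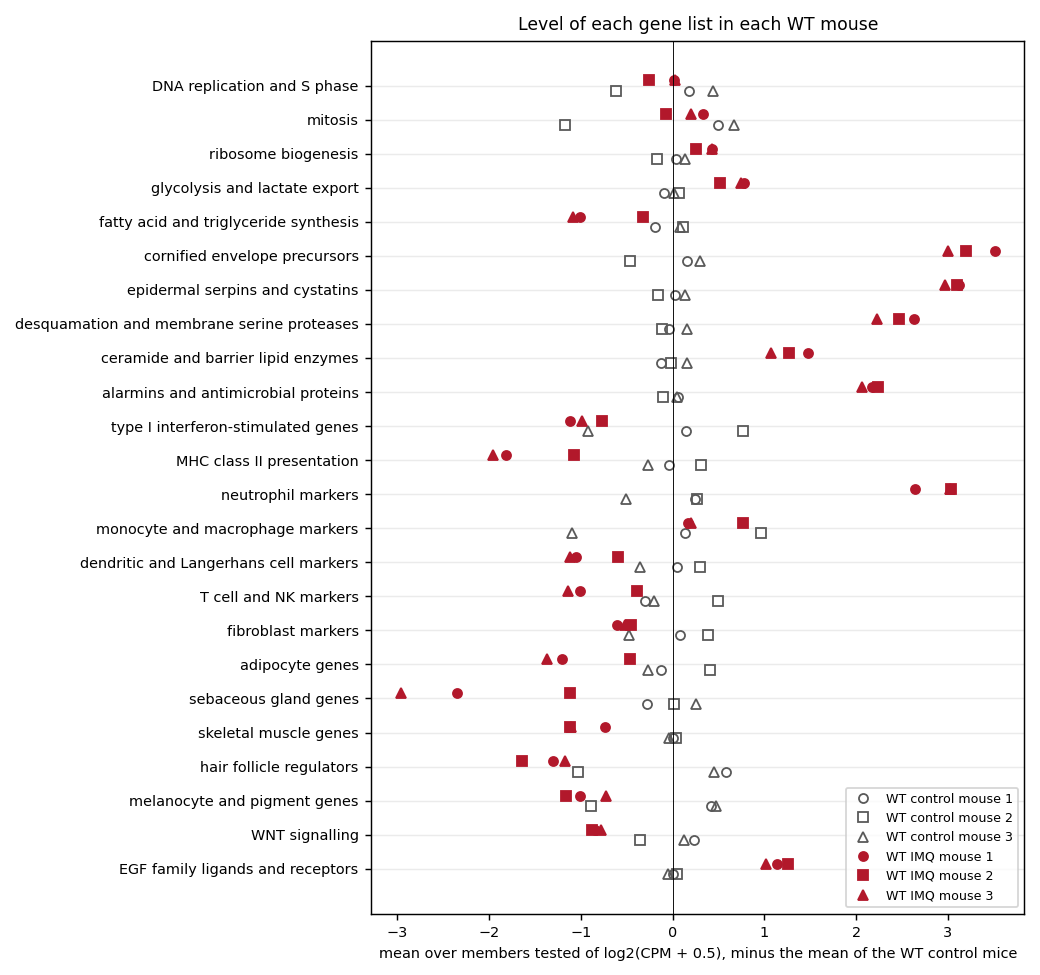
Points give the level of 24 gene lists in each WT mouse, as the mean of log2(CPM + 0.5) over tested members minus the WT control mean, with open symbols for control and filled symbols for IMQ mice. IMQ mice lie far to the right in the cornified envelope, serpin, protease and neutrophil lists, while control mouse 2 (square) lies far left of the other control mice in the mitosis, hair follicle and melanocyte lists.

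MHC class II molecules present extracellular antigens to T cells. Of 13 members of this pathway tested, 10 were lower, all 10 without overlap, and the median log2 fold change was -2.15. *Cd74*, which encodes the invariant chain that guides class II molecules, was at 1405, 2261 and 1369 CPM in the control mice and at 199, 497 and 165 CPM in the IMQ mice. *H2-Ab1*, a class II beta chain, was at 730, 1110 and 586 CPM against 77.8, 197 and 74.3 CPM. The highest IMQ mouse stayed well below the lowest control mouse in both, with log2 fold changes of -2.55 ± 0.43 and -2.80 ± 0.43. Between 9 and 11 members were lower when any WT mouse was left out. MHC class I presentation was lower in 4 of 23 members, a count that was 1 without control mouse 2, IMQ mouse 1 or IMQ mouse 3.

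Cells that carry class II molecules were represented by a dendritic and Langerhans cell list, in which 8 of 22 members were lower and 1 higher. *Cd207*, which encodes langerin of Langerhans cells, was at 26.2, 34.6 and 30.8 CPM in the control mice and at 4.73, 7.80 and 4.26 CPM in the IMQ mice. *Mgl2*, a lectin of dermal dendritic cells and macrophages, was at 175, 398 and 135 CPM against 3.33, 6.32 and 2.42 CPM. Both fell in every IMQ mouse, with log2 fold changes of -2.45 ± 0.33 and -5.90 ± 0.54. The member that rose, *Ltb4r1*, is a leukotriene B4 receptor that neutrophils carry as well.

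Of 41 T cell and NK markers, 15 were lower and 1 higher (2 without control mouse 2), with a median log2 fold change of -1.14. *Cd3g*, a chain of the T cell receptor complex, was at 14.8, 19.1 and 19.2 CPM in the control mice and at 3.33, 7.39 and 2.52 CPM in the IMQ mice. The groups did not overlap, and *Cd2* and *Klrk1*, receptors of T and NK cells, fell too. The exception, *Trbc2*, a constant segment of the T cell receptor beta chain, rose from between 9.94 and 13.5 CPM to between 26.3 and 31.2 CPM. The level of the list was -0.30, 0.49 and -0.20 for the control mice, against -1.01, -0.39 and -1.14 for the IMQ mice.

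Neutrophil markers rose in 17 of 23 members (median log2 fold change 3.54). Their summed level was between 97.5 and 274 CPM in the control mice and between 6384 and 10672 CPM in the IMQ mice. *Mmp8*, the collagenase of neutrophils, was at 0.739, 0.817 and 0.585 CPM against 19.0, 25.5 and 30.3 CPM. *S100a8* and *S100a9*, which keratinocytes also make, belong to this list too and made up 92.5% to 94% of the sum in the IMQ mice. Without both, the sum was 161, 267 and 89.2 CPM in the control mice, against 433, 645 and 535 CPM for the IMQ mice, which still did not overlap. The marker *Prtn3*, a granule protease named here after its values were seen, was called lower with overlapping groups, but not when control mouse 1, control mouse 2, IMQ mouse 1 or IMQ mouse 3 was left out.

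Monocyte and macrophage markers had 7 members higher and 2 lower of 32, with a median log2 fold change of 0.10. *Retnla* (chr16:48842551-48844461), a secreted marker of alternatively activated macrophages that fat tissue also expresses, was at 940, 780 and 322 CPM in the control mice and at 8.72, 5.65 and 8.19 CPM in the IMQ mice. It fell 90.2-fold. *Chil3*, a chitinase-like protein, rose from 1.98 CPM or less to between 52.4 and 63.8 CPM, and *Marco*, a scavenger receptor, rose with a log2 fold change of 3.22 ± 0.38. The level of the list was 0.14, 0.96 and -1.10 in the control mice, a wider range than the 0.17, 0.77 and 0.20 of the IMQ mice. Without control mouse 1 the number higher was 4, and without control mouse 3 the number lower was 6. It was 1 without control mouse 2, IMQ mouse 1 or IMQ mouse 3.

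Chemokines were called in both directions. *Cxcl1* and *Cxcl2*, which attract neutrophils, rose from 3.40 CPM or less to between 14.8 and 21 CPM and from 1.38 CPM or less to between 5.94 and 53.7 CPM. *Ccl24*, which attracts eosinophils, fell from 44.7, 15.3 and 7.55 CPM to 0.848, 1.68 and 0.630 CPM, and *Ccl27a*, which guides T cells to the epidermis, fell from between 15.9 and 25.7 CPM to between 7.06 and 7.36 CPM. In all, 7 of 34 chemokines were higher and 5 lower. Without control mouse 1 the first count was 4, and without IMQ mouse 1 the second was 3. Mast cell, basophil and eosinophil markers had 3 of 19 members higher and 2 lower. *Ear2*, a ribonuclease of eosinophils and macrophages, had a log2 fold change of -4.01 ± 0.48, and *Hdc*, the histamine-forming enzyme of mast cells, basophils and neutrophils, 2.01 ± 0.32.

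Signalling inside the innate response was represented by several short lists. Feedback regulators of NF-kappaB and STAT3 were higher in 9 of 30 and lower in 1 (between 0 and 3 when any WT mouse was left out). *Bcl3* was at 9.15, 8.98 and 6.11 CPM in the control mice and at 68.2, 70.0 and 60.8 CPM in the IMQ mice, and *Zc3h12a*, a ribonuclease that degrades cytokine transcripts, was at 19.2, 28.5 and 21.3 CPM against 152, 152 and 131 CPM. The groups were far apart in both. *Socs3*, an inhibitor of cytokine receptors, rose with a log2 fold change of 2.57 ± 0.36. *Tlr7*, the receptor of IMQ, named after its values were seen, was at 33.0, 64.0 and 12.2 CPM in the control mice and at 26.8, 46.0 and 25.5 CPM in the IMQ mice and was not called. Complement had 1 member of 22 called, *C4a*, also named after its values were seen, at between 0.559 and 0.786 CPM in the control mice and between 1.95 and 3.64 CPM in the IMQ mice. Without control mouse 2, 2 complement genes were higher, and without IMQ mouse 2, 2 were lower.

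Lytic cell death genes rose in 6 of 23 members, among them *Gsdmc*, a pore-forming gasdermin, from 5.04, 5.59 and 11.6 CPM to 189, 133 and 171 CPM, and *Aim2*, a sensor of cytosolic DNA, with a log2 fold change of 1.51 ± 0.25. *Gsdma3*, a gasdermin of the skin, fell, with a log2 fold change of -1.24 ± 0.24. Eicosanoid enzymes and receptors were called in both directions, 9 higher and 7 lower of 30. The phospholipases *Pla2g4d* and *Pla2g4e* rose, the first from 0.213 CPM or less to 102, 21.5 and 77.6 CPM and the second from between 19.4 and 32.3 CPM to between 278 and 513 CPM. *Alox12e*, the epidermal lipoxygenase, fell from 130, 179 and 293 CPM to 10.2, 17.3 and 8.62 CPM, whereas *Alox8* rose from between 1.07 and 4.16 CPM to between 47.5 and 57.9 CPM. Of the oxidant genes, 10 of 31 were higher and 1 was lower (between 0 and 2 when any WT mouse was left out). Those higher included *Duox1*, which makes hydrogen peroxide, with a log2 fold change of 3.78 ± 0.35, and its maturation factor *Duoxa1*, with 2.55 ± 0.27.

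**Figure D4:**
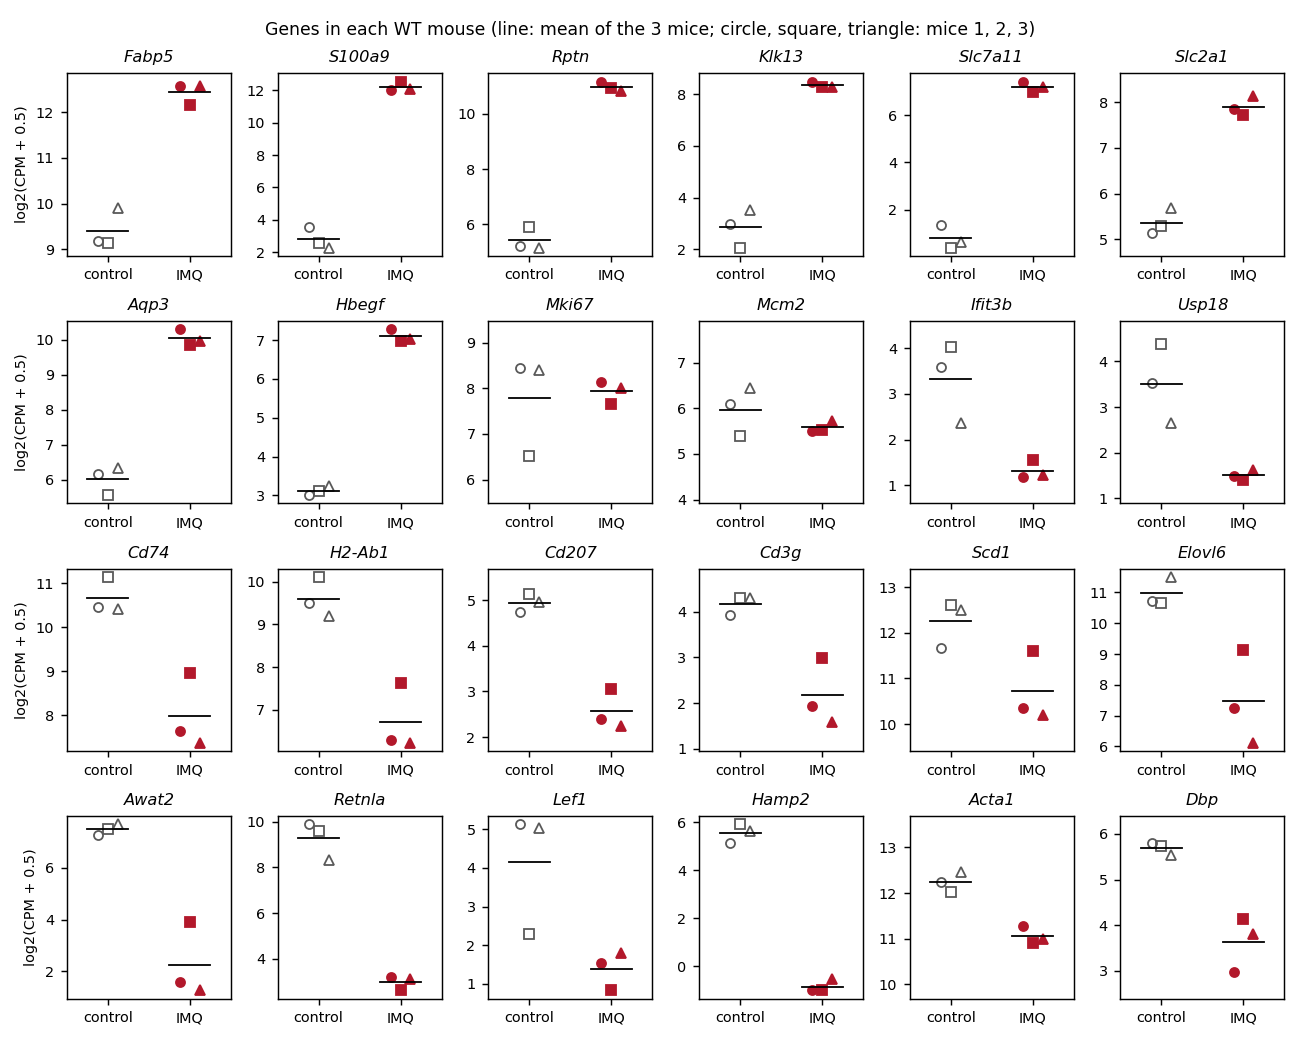
Each panel shows log2(CPM + 0.5) of 1 gene in the 3 WT control mice (open) and the 3 WT IMQ mice (filled), with a line at the mean of each group and each panel on its own scale. The groups are far apart in *S100a9*, *Slc7a11*, *Awat2* and *Hamp2*, while *Mki67* and *Mcm2* overlap, with control mouse 2 (square) lowest in both.

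Hair follicle regulators were lower in 19 of 42 members and higher in 2, and WNT genes were lower in 19 of 44 and higher in 3. *Shh*, the hedgehog ligand of growing follicles, was at 35.0, 3.05 and 32.4 CPM in the control mice and at 0.727, 0.134 and 0.823 CPM in the IMQ mice. *Lef1*, which carries WNT signals to DNA, was at 34.4, 4.43 and 32.5 CPM against 2.42, 1.28 and 3.00 CPM. Control mouse 2 was the lowest control in both and still above the IMQ mice. *Bmp4*, a ligand with even control values, fell from 23.5, 22.8 and 32.2 CPM to 6.79, 6.18 and 4.31 CPM, and *Wnt10b*, a WNT ligand of follicles, had a log2 fold change of -2.75 ± 0.56. Without control mouse 2, 23 follicle regulators and 21 WNT genes were lower. The WNT genes higher numbered 1 without control mouse 1, control mouse 2, IMQ mouse 1 or IMQ mouse 3, and so did the follicle regulators higher. *Porcn*, which lipidates WNT proteins for secretion, rose, with a log2 fold change of 2.14 ± 0.37. The ectodysplasin receptor *Edar* and its ligand *Eda* fell, with -2.61 ± 0.55 and -1.24 ± 0.23, as did the related receptor *Tnfrsf19* with -2.60 ± 0.36. *Tnfrsf12a*, the TWEAK receptor Fn14, rose from between 16.9 and 23.8 CPM to between 61.5 and 68.8 CPM. In the TNF superfamily list, 1 of 38 members was higher (2.63%, against 7.15% of all genes tested) and 5 were lower.

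Melanocyte and pigment genes were lower in 7 of 19 members, 11 without control mouse 2 and between 1 and 5 without any other WT mouse. *Sox10*, a transcription factor of melanocytes and Schwann cells, was at 11.2, 7.39 and 13.9 CPM in the control mice and at 4.06, 3.5 and 6.10 CPM in the IMQ mice, and its call was lost without IMQ mouse 1. Keratin-associated proteins of the hair shaft summed over the list to 24.9, 1.89 and 24.3 CPM in the control mice, against 0.485, 0.336 and 22 CPM for the IMQ mice. Control mouse 2 was far below the other control mice and IMQ mouse 3 far above the other IMQ mice, so that the groups overlapped.

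EGF family ligands and receptors rose in 6 of 16 members and fell in 1 (0 or 2 when any WT mouse was left out). The median log2 fold change of the list was 0.20, with 8 members above 0 and 8 below. *Hbegf*, heparin-binding EGF, was at 7.53, 8.08 and 8.99 CPM in the control mice and at 155, 126 and 129 CPM in the IMQ mice. *Epgn*, epigen, was at 7.76, 12.4 and 5.80 CPM against 228, 226 and 218 CPM. Both groups were compact and far apart, with log2 fold changes of 4.06 ± 0.25 and 4.69 ± 0.29. *Nrg1*, neuregulin, rose from 0.817 CPM or less to between 21.6 and 24.7 CPM. TGF-beta and BMP genes had 2 of 34 members higher (1 without IMQ mouse 3) and 5 lower (8 without IMQ mouse 2). The BMP inhibitor *Grem1* rose and the BMP target *Id3* fell, with log2 fold changes of 1.58 ± 0.15 and -1.44 ± 0.20.

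Skeletal muscle genes were lower in 17 of 33 members and higher in 1 (2 without control mouse 1 or IMQ mouse 2), at a median log2 fold change of -1.20, and the number lower was between 16 and 18 when any WT mouse was left out. *Acta1*, skeletal alpha-actin, was at 4836, 4153 and 5648 CPM in the control mice and at 2473, 1915 and 2051 CPM in the IMQ mice. *Pvalb*, the calcium buffer of fast fibres, was at 336, 440 and 439 CPM against 62.4, 36.6 and 25.6 CPM, and *Ckm*, muscle creatine kinase, fell too. *Myh2*, a myosin of fast oxidative fibres, was the member that rose, from 133, 269 and 260 CPM to 906, 428 and 587 CPM, a log2 fold change of 1.54 ± 0.31. Its groups did not overlap either.

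In the dermis, 8 of 25 collagens were lower and none higher. *Col11a1*, a minor fibrillar chain that hair follicle dermis also expresses, was at 119, 11.5 and 66.9 CPM in the control mice and at 5.27, 3.56 and 4.50 CPM in the IMQ mice. *Col4a4*, of basement membranes, fell with a log2 fold change of -1.27 ± 0.26. Fibroblast markers were lower in 4 of 24, which was 1 without control mouse 2, 2 without IMQ mouse 1 and 7 without control mouse 3, and *Sfrp4*, a secreted WNT antagonist among them, fell from 85.6, 139 and 30.9 CPM to 7.39, 5.04 and 12.9 CPM. Among matrix proteins, *Thbs1*, thrombospondin, rose from between 46.6 and 71.8 CPM to between 205 and 396 CPM. Of the metalloproteinases and inhibitors, 11 of 33 were higher and 3 lower (1 without control mouse 2 and 5 without control mouse 3). The collagenase *Mmp13* rose (log2 fold change 3.68 ± 0.52), and *Timp3*, which inhibits metalloproteinases, fell (-1.52 ± 0.30).

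Adipocyte genes were lower in 7 of 27 members and higher in none, a count that was 18 without IMQ mouse 2 and 4 without IMQ mouse 1. *Lep*, leptin, was at 47.5, 69.5 and 31.3 CPM in the control mice and at 4.30, 7.53 and 2.76 CPM in the IMQ mice. *Npr3*, the clearance receptor of natriuretic peptides, was at 25.2, 34.5 and 21.8 CPM against 5.03, 3.97 and 4.12 CPM. Both fell in all IMQ mice. Endothelial markers were higher in 3 of 30 (10%), near the 7.15% of all genes tested, at a median log2 fold change of 0.39. Those higher included the leukocyte adhesion selectins *Sele* and *Selp*, with log2 fold changes of 2.43 ± 0.52 and 2.24 ± 0.49. *Sox18*, a transcription factor of vessels and hair follicles, was lower. The number of endothelial markers higher was 6 without control mouse 2 and 5 without IMQ mouse 1 or IMQ mouse 3. Haemoglobin and platelet genes were higher in 6 of 8, a count of 2 without control mouse 1, 3 without control mouse 3 and 3 without IMQ mouse 2, and their summed level was between 31.8 and 146 CPM in the control mice and between 200 and 611 CPM in the IMQ mice. The part of blood in the leukocyte markers was not tested.

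Metal handling genes were higher in 3 of 33 members (5 without control mouse 2 or IMQ mouse 3) and lower in 5 (3 without IMQ mouse 1). Among them, *Hamp2* had the steepest fall of all named genes. It encodes hepcidin 2, a relative of the iron hormone of the liver, and was at 34.3, 59.5 and 48.7 CPM in the control mice, at 0 in IMQ mice 1 and 2 and at 0.194 CPM in IMQ mouse 3. Every control mouse was far above every IMQ mouse, with a log2 fold change of -9.17 ± 0.80, and reads of this gene may be shared with its close copy *Hamp*. *Slc39a14*, a zinc and iron importer, rose from between 39.1 and 61.4 CPM to between 97.8 and 128 CPM.

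Retinoid, xenobiotic and clock genes changed in both directions. *Crabp2*, which carries retinoic acid, and *Dhrs9*, which oxidizes retinol, rose with log2 fold changes of 2.13 ± 0.19 and 2.38 ± 0.35, while *Rbp4*, the retinol carrier, fell with -2.20 ± 0.46. Xenobiotic metabolism had 11 of 47 members higher, and 5 lower (11 lower without IMQ mouse 2, 2 without control mouse 2 or IMQ mouse 3, and 1 without IMQ mouse 1). *Gsta4*, which conjugates lipid peroxidation products to glutathione, rose from 6.89, 7.52 and 10 CPM to 214, 87.7 and 170 CPM, and *Gsto1*, an omega-class transferase, had a log2 fold change of 2.28 ± 0.14. Of 23 clock genes, 1 was higher (0 without IMQ mouse 3) and 5 were lower. *Dbp*, an output factor of the clock, was at 55.1, 53.1 and 46.2 CPM against 7.39, 17.1 and 13.5 CPM. *Bhlhe41*, a clock repressor, was at 27.5, 20.7 and 29.8 CPM against 3.03, 3.29 and 4.36 CPM. The groups did not overlap in either, and the time of day of collection was not given in the sources used here.

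Unfolded protein response genes had 2 of 31 members higher (6.45%, against 7.15% of all genes tested) and none lower. Those higher were *Trib3*, a pseudokinase of the amino acid response, and *Asns*, asparagine synthetase, with log2 fold changes of 2.24 ± 0.27 and 1.18 ± 0.15. Without control mouse 2, 4 members were higher. Heat shock proteins had 1 of 26 higher (0 without control mouse 2 or IMQ mouse 1) and 1 lower. Immediate early genes had 4 of 29 higher and 1 lower (0 without IMQ mouse 1 or IMQ mouse 3). Those higher included *Ier3*, which responds to stress and growth factors, from between 27.4 and 32.1 CPM to between 94.0 and 109 CPM, and the phosphatase *Dusp5* (log2 fold change 1.40 ± 0.17). The number higher was 11 without control mouse 2, whose level in the list was 0.56 against -0.16 and -0.40 in the other control mice.

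The response was set beside that of the mice labelled *Lcn2*-/-, which share no mouse with the WT comparison. There, 7.38% of the tested genes were called higher and 6.27% lower. Of the 2765 genes called in WT mice, 2502 (90.5%) had the same direction in the mice labelled *Lcn2*-/-, and 1240 were called in both with the same direction, which is 44.8% of the WT calls and 49.1% of the 2528 calls in the labelled mice. Opposite calls were made for 13 genes. The cornified envelope list had a median log2 fold change of 2.27 in WT mice and 2.00 in the labelled mice, the neutrophil list 3.54 and 3.68, the interferon-stimulated list -1.07 and -1.04, and the hair follicle list -1.68 and -1.76. MHC class II presentation had -2.15 and -0.65, macrophage markers 0.10 and 1.79, complement -0.10 and 1.17, fibroblast markers -0.63 and 0.46, and collagens -0.52 and 0.37. The difference between the responses was tested gene by gene, and 398 genes (2.15% of those tested) had an adjusted p under 0.05 for it by edgeR's quasi-likelihood test. That count was 2 without WT IMQ mouse 3 and 1927 without WT IMQ mouse 2, so single genes of it are less certain. The macrophage marker level was -0.13, -1.12 and -0.72 in the labelled control mice, against 0.14, 0.96 and -1.10 in the WT control mice. The difference test called 1 of 13 MHC class II genes, 1 of 32 macrophage markers and 0 of 22 complement genes. It called 4 of 24 fibroblast markers and 6 of 25 collagens, and the medians themselves were not tested. *Cd74*, at 1752, 770 and 1291 CPM in the labelled control mice and at 976, 659 and 790 CPM in the labelled IMQ mice, had an adjusted p of 0.0936 for the difference by this test.

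**Figure D5:**
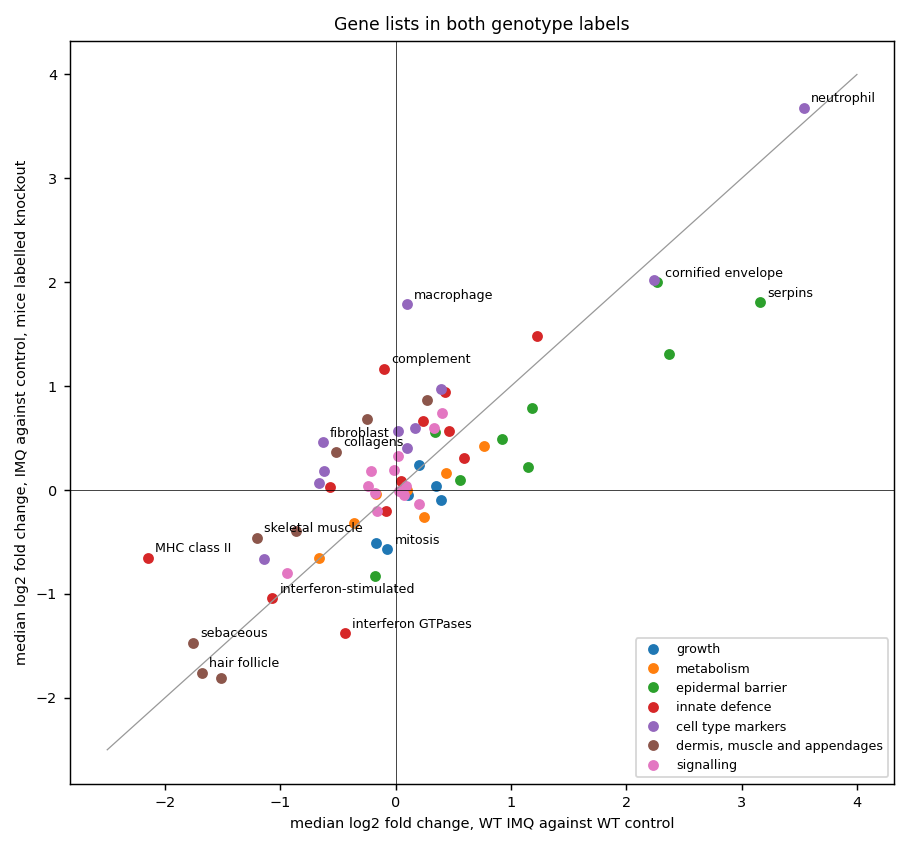
Each point is a gene list, placed by its median log2 fold change of IMQ against control in WT mice (horizontal) and in mice labelled *Lcn2*-/- (vertical), with a grey line of equality; the hair shaft protein list, at -10.60 in the labelled mice, and the retina list are left out. Neutrophil, cornified envelope, interferon-stimulated and hair follicle lists lie near the line, while macrophage, complement and MHC class II lists lie above it. The distance of a list from the line was not tested.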

How the data were processed

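The deposited file is a table of raw counts per gene, with 56923 Ensembl identifiers and 12 libraries, which the authors made from their RNA-seq reads. The labels name HISAT and genome build mm8; the aligner version, the counter, the annotation and strand use are not given in the sources used here. Names and positions came from GENCODE M21 (GRCm38), which holds 52073 identifiers (91.5%); unmatched identifiers hold 0.567% of the counts. For 68 shared symbols the identifier with more counts kept the name, and 4 listed symbols had no match and were not analysed here.

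After TMM scaling, the counts were fitted in edgeR 4.0.16 (limma 3.58.1, R 4.3.3), with 4 group means over all 12 mice, robust quasi-likelihood and filterByExpr (minimum count 10, minimum total 15). Adjusted p-values are Benjamini-Hochberg values over the 18529 genes tested. A gene was called with a fold above 2 and an adjusted p under 0.05, and the difference between responses with an adjusted p under 0.05. The SE of a log2 fold change was its size divided by the square root of F. The p-values measure the spread between these mice; an exact test of 3 against 3 cannot go below 0.1. Mice of a group were compared for duplicated libraries and none was found.

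The gene lists and members were chosen with earlier results of these data known, and lists are described by counts and medians only. Named genes are called list members without overlap and with a mean of at least 5 CPM, up to 3 in each direction per list, and the 10 largest gains and losses in CPM; where a list had none, its first genes. On simulated counts of the WT comparison, with 200 of 18529 genes changed 4-fold, edgeR recovered 164 with 4 false calls and DESeq2 1.42.0 recovered 182 with 19. Alternatives were RLE size factors, DESeq2, no filter, the 6 WT mice alone, the replicate block, no fold threshold and each mouse left out. Figures were drawn with matplotlib 3.10.9.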

Additional observations from a re-analysis of the deposited data

Results flagged for a closer look

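For 20 of the 221 named genes, the response to IMQ differed between WT mice and mice labelled *Lcn2*-/-. The adjusted p was under 0.05 in the interaction term of edgeR's quasi-likelihood test, as for 2.15% of all genes tested. Named genes were chosen for their changes in WT mice, which favours larger WT responses among them. Their count thus cannot be set against that share. Values are log2 differences, the WT response minus that of the labelled mice. The WT response was the more positive in *Serpinb3a* (4.61), *Gsdma3* (2.76), *Epgn* (2.36), *Bcl3* (1.96), *Pla2g4e* (1.95), *Slc5a1* (1.85), *Zc3h12a* (1.81), *Gsdmc* (1.74), *Slc6a14* (1.69), *Tgm1* (1.57), *Slc26a9* (1.57), *Ehf* (1.49), *Grhl3* (1.34), *Bhlhe40* (0.81) and *Ier3* (0.81). In *Gsdma3* this stood for a smaller fall. The WT response was the more negative in *Retnla* (-4.47), *Dbp* (-2.64), *Sox18* (-2.38), *Mmp23* (-1.79) and *Ltbp4* (-1.11). The number of genes that pass this test over the whole table moved from 398 to between 2 and 1927 when 1 mouse was left out, and was 10 with the replicate block.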

How the results depend on the processing

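Without a fold threshold, 2633 genes were higher and 2654 lower. Leaving out 1 mouse gave 1052 to 1528 higher (1052 without WT IMQ mouse 1) and 961 to 1666 lower (961 without WT IMQ mouse 1). RLE, DESeq2, no filter, the 6 WT mice alone and the replicate block gave 1133 to 1555 higher and 1167 to 1675 lower. Genes with a difference between the responses numbered 398, 413 with RLE, 513 without a filter, 1927 with DESeq2, 10 with the replicate block and 2 to 1927 leaving out 1 of the 12 mice: 2 without WT IMQ mouse 3, 3 without WT IMQ mouse 1 or labelled IMQ mouse 2, 22 without WT control mouse 1, 24 without labelled control mouse 2 or 3, 29 without labelled IMQ mouse 1, 107 without labelled IMQ mouse 3, 113 without WT control mouse 2, 759 without labelled control mouse 1, 1136 without WT control mouse 3 and 1927 without WT IMQ mouse 2. Of 221 named genes, 176 were called in all 11 alternatives, 44 lost the call when at least 1 WT mouse was left out, and none changed direction.

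Replicate numbers come from the labels and mark different animals. Deviations of same-numbered WT mice correlated at 0.101, 0.238 and 0.0686, so the numbers were not taken as pairs, and the replicate block gave 1197 higher and 1277 lower.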

Other observations

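Long non-coding RNA genes of the GENCODE annotation were called as well: of 1507 tested in the WT comparison, 159 were higher (10.6%) and 102 lower (6.77%). Of 15225 protein-coding genes, 1056 were higher (6.94%) and 1269 lower (8.33%). The 979 pseudogenes tested were called in 3.98% (higher) and 2.76% (lower).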
